A study of Mus musculus with 12 samples.

Results

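Genes of macrophages and other antigen-presenting cells, 35 in all, were followed in mouse quadriceps muscle across vehicle and drug treatments. They were taken by their symbol in the array annotation, and each was read from its brightest probe set by mean log2 signal over the 12 arrays. All 35 were among the 18193 genes on the array, and 32 of them were among the 12771 genes bright enough to be tested. Mpeg1, Ccl2 and Aif1, with geometric mean signals of 12.5, 13.6 and 15.0, lay under the filter at a signal of 28.2. The members just inside it were Cx3cr1, Ms4a7 and Ccr2, at 28.5, 34.6 and 38.1.

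The muscle came from C57Bl/6J mice that received vehicle, 250 mg/kg/day of AICAR, 5 mg/kg/day of GW1516, or both drugs at these doses (the combination), each for 6 days. AICAR mimics AMP once inside the cell and so turns on the AMP-activated protein kinase, while GW1516 is a ligand that switches on PPARδ, a lipid-sensing nuclear receptor. Each array held RNA pooled from 3 mice of 1 group, and each of the 4 groups had 3 arrays. The sources used here do not give mouse age or sex, the vehicle or the route of dosing. They also leave unsaid whether 2 pools could hold the same mouse, so the p-values below reflect variation from pool to pool.

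Resident macrophages of skeletal muscle lie in the connective tissue around fibres and vessels, where they clear debris, sample their surroundings and take part in repair after injury. They depend on colony-stimulating factor through the receptor Csf1r, make most of the C1q that starts the classical complement cascade, and carry scavenger and Fc receptors for uptake. With dendritic cells and B cells they share the MHC class II pathway, in which an α and a β chain assemble on the invariant chain Cd74, load peptide in endosomes after Ctss trims that chain, and show it to helper T cells.

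None of the 32 members tested differed from vehicle after either drug or the combination by limma's moderated test at an adjusted p under 0.05 (counts at an unadjusted p follow). The largest difference from vehicle was that of Cd14, the co-receptor for bacterial lipopolysaccharide, whose mean signal was 49.6 ± 7.93 (SD, n = 3) with vehicle and 82.5 to 96.6 in the drug groups. By median over the 35 members, the log2 difference from vehicle was 0.13 after AICAR, -0.20 after GW1516 and 0.03 after the combination, while the medians of all genes tested were 0.01, -0.01 and 0.00. The GW1516 value was -0.01 without 1 array, the second of that group. In whole muscle, fewer macrophages and less RNA per macrophage cannot be told apart.

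Against vehicle, 0 of 32 genes were called after AICAR, 0 after GW1516 and 0 after the combination, where 0.00783%, 0.0940% and 0.258% of all genes tested were called by limma. At an unadjusted p under 0.05 the counts were 2 after AICAR (Cd14 and Cd163), 1 after GW1516 (Cd14) and 3 after the combination (Cd14, Ctss and H2-Ab1). These are 6.25%, 3.12% and 9.38% of the 32, beside 6.93%, 9.64% and 10.9% of all genes. With counts this small, the shares were not read as a difference from all genes. The combination differed from AICAR alone in 0 members (0.0313% of all genes) and from GW1516 alone in 0 (0% of all genes), and the interaction of the drugs, which asks whether their joint difference departs from the sum of the separate ones on the log2 scale, called 0 members and 0% of all genes. Their counts at an unadjusted p under 0.05 were 1 (C1qb, 3.12%), 3 (Mrc1, Ms4a7 and Ccl9, 9.38%) and 0, beside 7.32%, 10.4% and 6.64% of all genes. Without the second GW1516 array, described below, the count for GW1516 against vehicle was 2, Cd14 and H2-Ab1, beside 879 of 12771 genes. For the combination against GW1516 it was 1, H2-Eb1 in place of the 3 genes named, beside 1115 genes. The interaction had 2, Cd74 and H2-Eb1, beside 810 genes. Adjusted p by limma was 0.7 for Cd14 and 0.585 for H2-Ab1, then 0.557 for H2-Eb1, and 0.782 for both genes of the interaction. The moderated F test across the 4 groups called 0 members, with 0.110% of all genes called, and put Cd14, Cd163 and C1qb at an unadjusted p under 0.05 (9.38% of members, 10.4% of genes).

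Directions were mixed. After AICAR 20 of the 32 members (62.5%) lay above vehicle, beside 52.0% of all genes, and after the combination 18 (56.2%) did, beside 49.1%. With each array centred on its median the counts were 16 and 14, but the median of all genes then moved to -0.11 and -0.08. With quantile normalization, where the median of all genes was 0.00 for both, the counts were 19 and 18. The combination lay above AICAR for 10 members (31.2%, beside 46.9% of genes), or 15 with median centring, and above GW1516 for 20 (62.5%, beside 52.1%), or 18. The interaction was above 0 for 16 (50%, beside 49.5%). Without the second GW1516 array these last 2 counts were 17 (53.1%, beside 48.5% of genes) and 12 (37.5%, beside 47.5%).

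The precision of these comparisons was set by 3 arrays a group. The median 95% interval of a member's difference from another group reached 0.56 to either side on the log2 scale. For 25 members after AICAR, 26 after GW1516 and 25 after the combination, the whole interval lay within a 2-fold difference from vehicle in either direction. Cx3cr1, Ms4a7, Itgam and Cd14 had intervals that reached past 2-fold in all 3 comparisons.

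**Figure D1:**
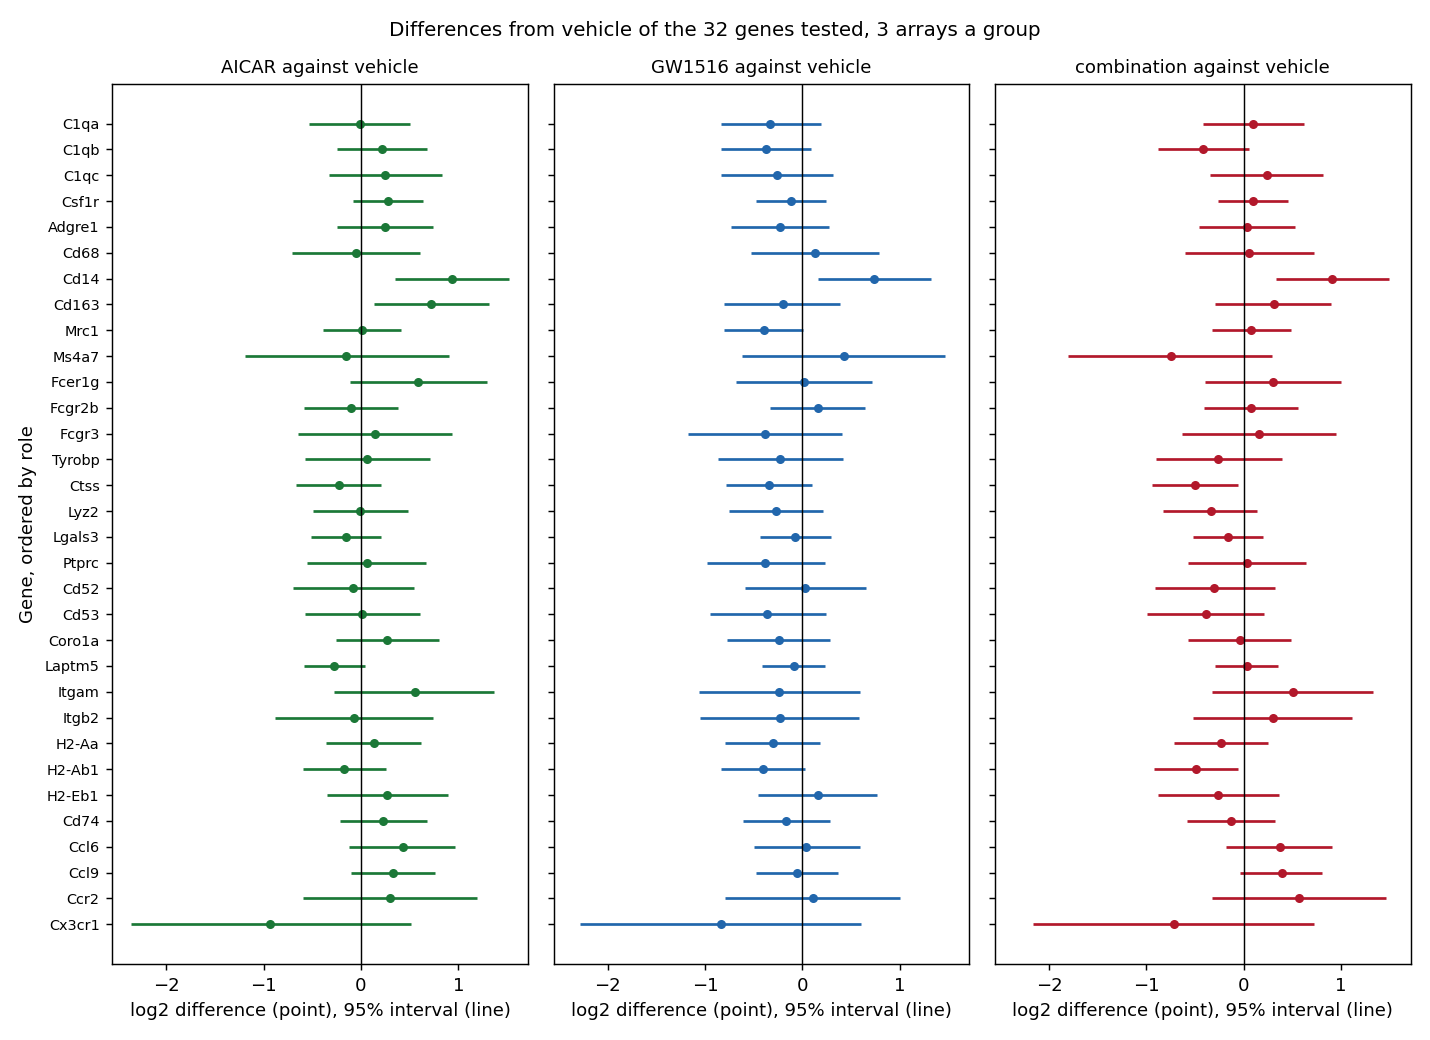
Log2 difference from vehicle (points) with its 95% interval from limma (lines) for the 32 genes tested, ordered by role, in a panel each for AICAR, GW1516 and the combination; every group has 3 arrays. Cd14 lies farthest to the right in each panel, at 0.94, 0.74 and 0.91, and the intervals of most other genes cross 0.

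The arrays shared a trimmed mean signal of 200, and correlations between arrays lay between 0.947 and 0.968. Skeletal muscle markers were bright throughout, with Acta1, Ckm and Myh4 between signals of 23260 and 32681. By median, 15 fibre markers differed from vehicle by 0.09 after AICAR, 0.13 after GW1516 and 0.20 after the combination. By limma 0 of them were called, with 0, 2 and 8 at an unadjusted p under 0.05, beside 6.93%, 9.64% and 10.9% of all genes. Their summed signal ran from 305126 to 318962 with vehicle and 304314 to 390024 with GW1516. It lay wholly above vehicle with AICAR (325300 to 328921) and the combination (348649 to 358738). The titles give every array the same set number, so no batch could be compared. One array stood apart: the second GW1516 array received the lowest weight, 0.33, when limma estimated array weights, against 0.66 to 1.64 for the others. The comparisons with the GW1516 group were therefore also run without it.

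That array held the lowest of the 12 signals for 13 of the 32 members, or 40.6%, where it was lowest for 19.8% of all genes tested. The 13 were C1qa, C1qc, Csf1r, Adgre1, Cd68, Mrc1, Ptprc, Cd53, Itgb2, H2-Aa, Cd74, Ccl9 and Cx3cr1. It held the highest signal for 0 members and for 14.5% of all genes. By median over the 35 members, the GW1516 arrays stood at -0.21, -0.35 and 0.18 from the vehicle mean on the log2 scale, so the third lay above vehicle and the second farthest below. After GW1516, 9 of the 32 members lay above vehicle (28.1%, beside 47.1% of all genes), and without the second array 14 did (43.8%, beside 50.9%).

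Markers of connective tissue were low on the same array. The median of 18 fibroblast and matrix genes stood at -0.19, -1.21 and 0.08 from the vehicle mean on the 3 GW1516 arrays, and their summed signal ranged from 27712 to 52845 there, from 45014 to 56239 with vehicle, from 49034 to 59097 with AICAR and from 45239 to 47648 with the combination. Col1a1, a chain of collagen I, had signals from 1241 to 4641 with GW1516 and from 4328 to 6830 with vehicle. Other macrophage genes, 45 on the array, stood at -0.09, -0.42 and 0.04, and 8 satellite cell genes at 0.05, -0.46 and -0.02. The part of connective tissue content in the low macrophage signals of that array was not tested.

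**Figure D2:**
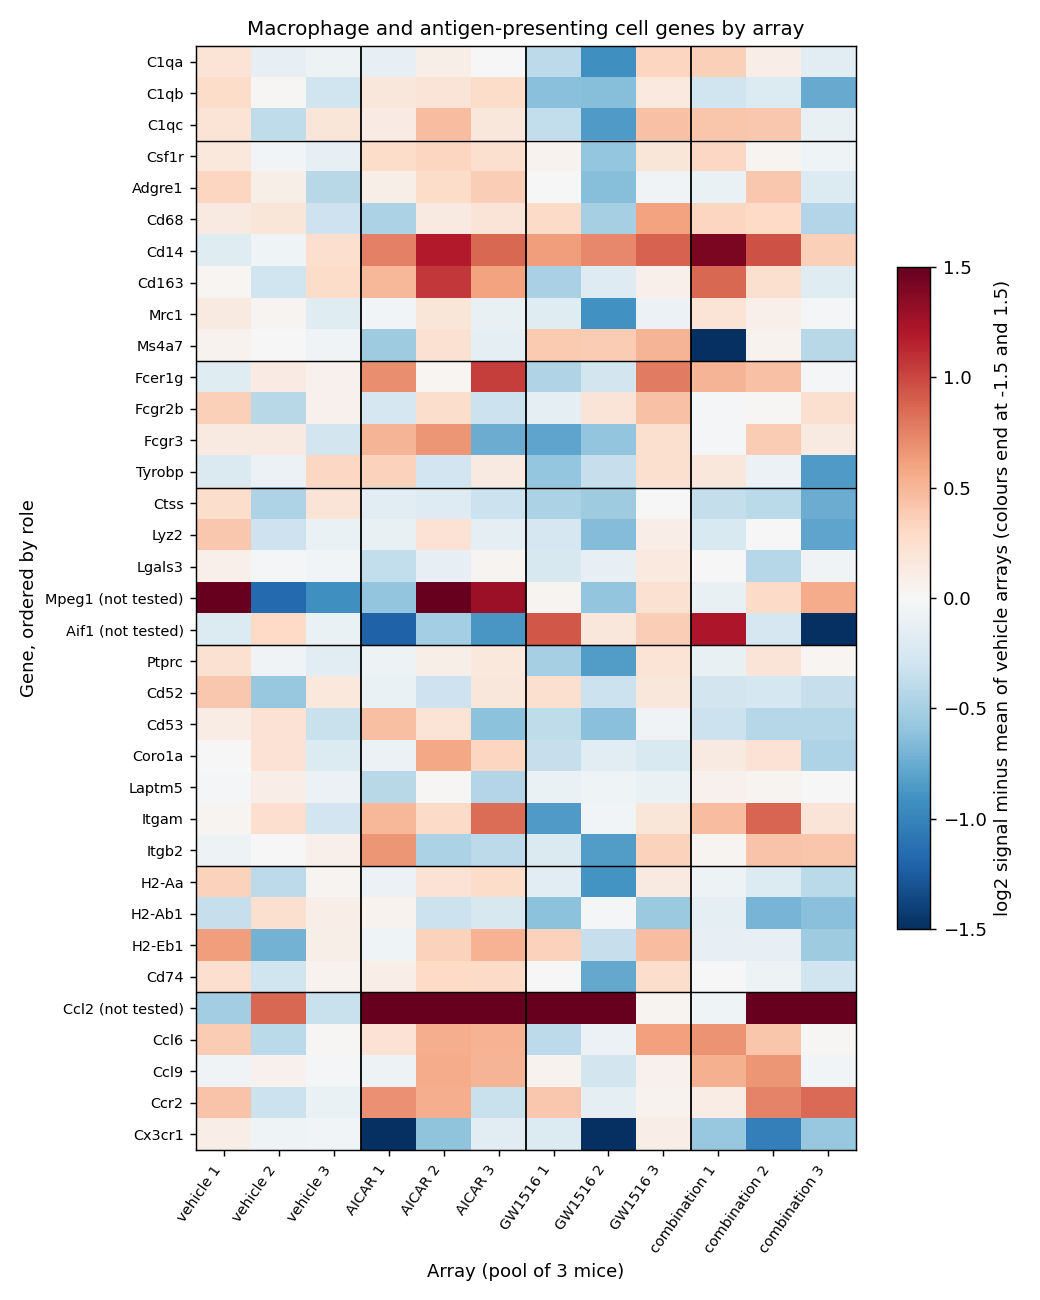
Log2 signal of each of the 35 genes (rows, ordered by role) on each of the 12 arrays (columns, by group), as the difference from that gene's mean over the vehicle arrays. The column of the second GW1516 array is mostly below vehicle, and the row of Cd14 is above vehicle on all 9 drug arrays.

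C1q is built from the products of 3 neighbouring genes, C1qa, C1qb and C1qc, each giving 1 kind of chain. C1qa had signals of 292, 234 and 241 with vehicle, 234, 270 and 254 with AICAR, 194, 135 and 319 with GW1516, and 326, 273 and 228 with the combination. C1qc had 262, 174 and 259 with vehicle, 248, 313 and 257 with AICAR, 177, 126 and 309 with GW1516, and 303, 302 and 211 with the combination. In both genes the GW1516 arrays spanned more than any other group, with the second array lowest of all 12, and the groups overlapped. C1qa differed from vehicle by -0.33 (SE 0.24) after GW1516 on the log2 scale and C1qc by -0.26 (SE 0.27), with adjusted p = 0.684 and 0.794 by limma. Without the second GW1516 array the differences were -0.03 and 0.04.

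C1qb had signals of 282, 236 and 188 with vehicle, 262, 266 and 282 with AICAR, 150, 150 and 257 with GW1516, and 189, 202 and 138 with the combination. All 3 combination arrays were lower than all 3 AICAR arrays, while both of these groups overlapped vehicle. The combination differed from AICAR by -0.63 (SE 0.22, 95% interval -1.10 to -0.16), with an unadjusted p of 0.0119 and an adjusted p of 0.643 by limma. Against vehicle it differed by -0.42 (SE 0.22, adjusted p = 0.51). The other C1qb probe sets gave 0.45 and 0.71 after AICAR, -0.27 and -0.24 after GW1516, and -0.14 and 0.40 after the combination, so the sign after the combination depended on the probe set.

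Over the 12 arrays, C1qa and C1qc varied together, with Pearson's r of 0.91 (two-sided permutation p = 5e-05, adjusted 0.000225 over 9 pairs) and Spearman's rho of 0.87 (permutation p = 0.00049, adjusted 0.0011). The r was 0.81 without the 2 arrays farthest from the median of C1qa, 0.92 over deviations from the group means, and 0.82 without the second GW1516 array. Between C1qb and C1qa, r was 0.58 (permutation p = 0.0369, adjusted 0.0664) and rho 0.55 (permutation p = 0.0709, adjusted 0.128), and between C1qb and C1qc r was 0.56 (adjusted permutation p = 0.0793) and rho 0.48 (adjusted 0.173). Over deviations from the group means these r values were 0.82 and 0.71, so C1qb lay nearer to the other chains within groups than across them. The difference between these correlations was not tested, and the values of 1 array share its RNA pool and scaling.

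PU.1, the lineage factor of macrophages encoded by Spi1, binds around the letters GAGGAA. The 250 bases before the annotated start are shown for C1qb and C1qc, the C1q genes found in the RefSeq promoter table (GRCm38.p6), with each match to GAGGAA or its reverse complement TTCCTC in capitals.
C1qb, chr4:136886201-136886450, minus strand: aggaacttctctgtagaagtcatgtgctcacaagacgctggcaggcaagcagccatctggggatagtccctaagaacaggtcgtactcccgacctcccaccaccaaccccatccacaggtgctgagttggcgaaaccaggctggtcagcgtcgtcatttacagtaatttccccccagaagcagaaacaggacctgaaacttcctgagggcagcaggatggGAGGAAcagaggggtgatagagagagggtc
C1qc, chr4:136892915-136893164, minus strand: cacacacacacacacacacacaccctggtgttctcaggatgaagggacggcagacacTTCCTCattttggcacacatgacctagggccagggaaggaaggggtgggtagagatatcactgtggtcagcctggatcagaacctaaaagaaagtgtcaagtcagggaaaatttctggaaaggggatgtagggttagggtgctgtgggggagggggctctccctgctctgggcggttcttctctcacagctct
The match in C1qb begins 30 bases before the start, and that in C1qc 193 bases before it. Of the 35 genes, 25 were matched in the table, and Cd74, Csf1r, Ccl2, Adgre1, Tyrobp, Itgb2, C1qa, Cd52, Cd14 and H2-Ab1 were not. GAGGAA was found on either strand in 11 of the 25 (44%), among them Cd68, Mrc1, Fcgr3, Ctss, Ptprc and Itgam, and in 25.9% of the 27025 promoters of the table. A match of 6 letters is a description of the sequence. Spi1 itself had signals of 47.7 to 84.8 with vehicle, 70.8 to 86.9 with AICAR, 47.0 to 85.2 with GW1516 and 42.7 to 60 with the combination, with overlapping ranges against vehicle.

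Among the 7 lineage receptors and surface markers, Cd14 was the member whose drug arrays all lay above vehicle. Its signals were 43.3, 47.1 and 58.5 with vehicle, 83.1, 113 and 89.5 with AICAR, 76.0, 80.8 and 90.8 with GW1516, and 131, 95.7 and 63.3 with the combination. The lowest drug array, the third of the combination, stood just above the highest vehicle array. All 9 drug arrays lay above all 3 vehicle arrays for this 1 member of 32 (3.12%) and for 1.08% of all genes tested, and all 9 lay below for 0 members and 1.42% of genes. Cd14 was 1.92 times vehicle after AICAR, a log2 difference of 0.94 (SE 0.27, 95% interval 0.35 to 1.52). After GW1516 it was 1.67 times vehicle (0.74, SE 0.27, interval 0.16 to 1.32), and after the combination 1.88 times (0.91, SE 0.27, interval 0.33 to 1.49).

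None of these Cd14 differences passed after adjustment over all genes, with adjusted p = 0.474, 0.45 and 0.226 by limma, and limma's F test gave an adjusted p of 0.367. The array has 1 probe set for Cd14, so no other probe set could be set beside it. The interaction was -0.77, the combination being lower than the sum of the separate differences, with an adjusted p of 0.755. The 3 comparisons share the vehicle arrays, so their like values are not separate evidence. Without the second GW1516 array the GW1516 difference was 0.75.

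**Figure D3:**
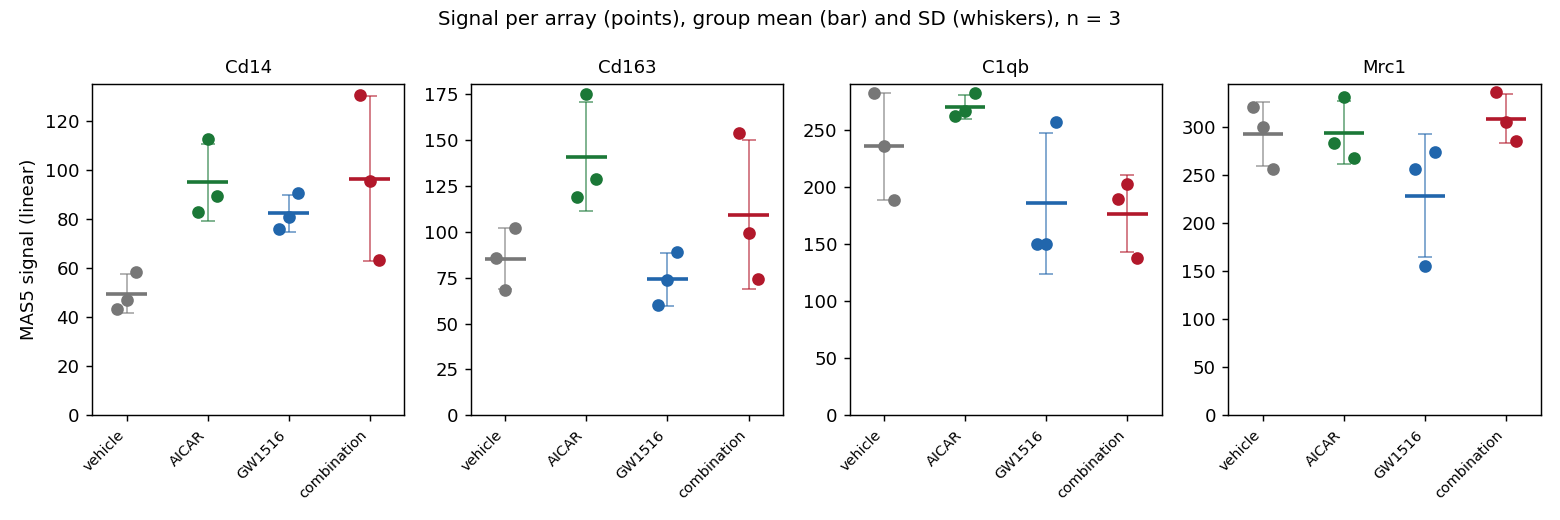
MAS5 signal on a linear axis per array (points), with the group mean (bar) and SD (whiskers, n = 3 arrays), for Cd14, Cd163, C1qb and Mrc1 in the 4 groups. Cd14 is higher on every drug array than on every vehicle array, the AICAR points of Cd163 lie above its vehicle points, and in Mrc1 the second GW1516 array, at 155, is the lowest.

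Cd163 is the scavenger receptor by which macrophages take up haemoglobin bound to haptoglobin. It had signals of 85.7, 68.4 and 102 with vehicle, 119, 175 and 129 with AICAR, 60, 73.6 and 88.8 with GW1516, and 154, 99.6 and 74.4 with the combination. AICAR arrays lay above all vehicle and all GW1516 arrays, and the combination ran from the vehicle range into the AICAR range. The difference from vehicle after AICAR was 0.72 on the log2 scale (SE 0.28, 95% interval 0.13 to 1.32, adjusted p = 0.643 by limma), beside -0.20 after GW1516 and 0.31 after the combination. For limma's F test p was 0.0254 and adjusted p 0.416, and AICAR and GW1516 were not tested against each other.

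Csf1r, the receptor that keeps macrophages alive, had signals of 499, 435 and 412 with vehicle, 542, 559 and 529 with AICAR, 463, 299 and 506 with GW1516, and 557, 462 and 426 with the combination. All AICAR arrays lay above all vehicle arrays, by 0.28 in mean log2 (SE 0.17, adjusted p = 0.76 by limma). Dimmer Csf1r probe sets gave 0.18 and -0.11 for the same comparison, so their signs differed. After GW1516 the difference was -0.12, and 0.11 without the second array of that group. With Cd14, Cd163 and Itgam, Csf1r made up the 4 members (12.5%) whose AICAR arrays all lay above vehicle, where 9.30% of all genes did; Cx3cr1 alone (3.12%) lay wholly below, where 9.03% of genes did.

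Mrc1, the mannose receptor of tissue macrophages, had signals of 321, 300 and 256 with vehicle, 283, 331 and 268 with AICAR, 256, 155 and 274 with GW1516, and 336, 305 and 285 with the combination. The combination arrays all lay above the GW1516 arrays, and the other groups overlapped. The combination exceeded GW1516 by 0.48 (SE 0.19, 95% interval 0.08 to 0.88, adjusted p = 0.414 by limma), which became 0.22 without the second GW1516 array. The difference of GW1516 from vehicle was -0.39 with that array and -0.14 without it.

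Adgre1, which encodes the macrophage marker F4/80, had signals of 194, 164 and 116 with vehicle, 164, 187 and 200 with AICAR, 156, 98.8 and 149 with GW1516, and 144, 205 and 134 with the combination. Cd68, a glycoprotein of macrophage endosomes, had 107, 111 and 78.9, then 70.2, 107 and 112, then 120, 69.3 and 149, then 123, 120 and 72.2 in the same order of groups. All groups overlapped vehicle in both genes. Their differences from vehicle lay between -0.23 and 0.25 on the log2 scale. Without the second GW1516 array, lowest for both, the difference after GW1516 was 0.45 for Cd68 (0.13 with it; adjusted p = 0.817 by limma) and -0.02 for Adgre1 (-0.23 with it). Ms4a7, a membrane protein of tissue macrophages, was dim, between 10.2 and 53.3 over all arrays. Its GW1516 arrays (48.7 to 53.3) lay above vehicle (36.2 to 39.0) and above the combination (10.2 to 38.8), and the combination differed from GW1516 by -1.18 (SE 0.49, adjusted p = 0.441 by limma).

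Against GW1516 alone, 3 members lay wholly higher after the combination (Mrc1, Laptm5 and Itgam; 9.38%, beside 6.77% of genes) and 1 wholly lower (Ms4a7; 3.12%, beside 6.08%). With GW1516 alone, Cd14 and Ms4a7 lay wholly above vehicle (6.25%, beside 6.30% of genes) and 0 wholly below (7.91% of genes). With the combination, Cd14 lay wholly above vehicle (3.12%, beside 8.90%) and Cx3cr1 wholly below (3.12%, beside 9.69%). These shares were near or under those of all genes, apart from the small excess against GW1516.

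The Fc receptors bind antibody-coated targets. Fcgr3 and the shared chain Fcer1g activate the cell, Fcgr2b inhibits it, and Tyrobp is an adaptor of the same activating kind. Over the 12 arrays Fcer1g ran from 57.5 to 161, Fcgr3 from 42.5 to 116, Fcgr2b from 104 to 188 and Tyrobp from 54.0 to 125, and each drug group overlapped vehicle in all 4 genes. The largest difference from vehicle was that of Fcer1g after AICAR, 0.59 on the log2 scale (SE 0.33, adjusted p = 0.754 by limma).

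Lyz2, the lysozyme of macrophages and neutrophils, had signals of 1106, 671 and 778 with vehicle, 774, 966 and 761 with AICAR, 698, 531 and 891 with GW1516, and 709, 827 and 482 with the combination. Lgals3, a galectin made by phagocytes, had 184, 170 and 168 with vehicle, 135, 160 and 179 with AICAR, 147, 160 and 193 with GW1516, and 173, 129 and 168 with the combination. All drug groups overlapped vehicle in both, with differences of -0.34 to -0.01 for Lyz2 (after GW1516 -0.27, or -0.08 without the second array) and -0.16 to -0.07 for Lgals3.

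Ctss, the protease that trims the invariant chain, had signals of 259, 156 and 247 with vehicle, 192, 188 and 172 with AICAR, 155, 149 and 216 with GW1516, and 168, 163 and 129 with the combination. The low second vehicle array, at 156, made every drug group overlap vehicle, while the combination lay wholly below AICAR. The combination differed from vehicle by -0.50 (SE 0.21, 95% interval -0.94 to -0.06, adjusted p = 0.392 by limma). Mpeg1, a pore-forming protein of phagocytes, and Aif1, an actin-binding protein also called Iba1, were too dim to test. Mpeg1 ran from 4.51 to 58.0 and Aif1 from 5.40 to 38.8, with the highest and lowest Aif1 signals both in the combination group.

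Ptprc, the leukocyte phosphatase CD45, had signals of 80.9, 66.3 and 61.3 with vehicle, 65.7, 73.2 and 77.3 with AICAR, 48.8, 38.6 and 79.7 with GW1516, and 63.8, 78.7 and 70.2 with the combination. First and second GW1516 arrays were below every other array and the third was among the highest, so the groups overlapped. Ptprc differed from vehicle by -0.38 (SE 0.28, adjusted p = 0.695 by limma) after GW1516, and by -0.15 without the second array.

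Itgam, the CD11b chain of complement receptor 3, had signals of 36.7, 42.5 and 29.3 with vehicle, 50.7, 43.8 and 64.1 with AICAR, 19.8, 34.8 and 40.6 with GW1516, and 49.3, 65.7 and 40.8 with the combination. Both groups given AICAR lay wholly above GW1516 alone, and the AICAR group also lay above vehicle. Its difference from vehicle was 0.55 (SE 0.38, 95% interval -0.28 to 1.37) after AICAR and 0.51 after the combination, and the combination exceeded GW1516 by 0.75 (adjusted p = 0.522 by limma), or 0.84 without the second GW1516 array. Itgb2, the chain that pairs with it, ran from 28.7 to 80.9 with overlapping groups.

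The other pan-leukocyte genes encode the surface proteins Cd52 and Cd53, the actin regulator Coro1a and the lysosomal protein Laptm5. Cd52 ran from 48.0 to 93.6, Cd53 from 62.8 to 133, Coro1a from 61.9 to 128 and Laptm5 from 131 to 190, and no drug group was clear of vehicle in any of them. Laptm5 after AICAR lay below vehicle from its brightest probe set, by -0.28 (SE 0.15, adjusted p = 0.751 by limma), and above it, by 0.25, from the mean of its probe sets.

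Of the MHC class II chains, H2-Aa encodes the α chain and H2-Ab1 the β chain of the I-A molecule, H2-Eb1 encodes the β chain of I-E, and Cd74 the invariant chain. C57Bl/6J mice make no I-E α chain and so show no I-E on the cell surface, though H2-Eb1 is transcribed. H2-Aa had signals of 1258, 756 and 1021 with vehicle, 928, 1149 and 1195 with AICAR, 889, 534 and 1089 with GW1516, and 941, 856 and 745 with the combination. Cd74 had 1058, 723 and 923 with vehicle, 953, 1097 and 1089 with AICAR, 895, 521 and 1072 with GW1516, and 886, 842 and 727 with the combination. H2-Eb1 had 484, 193 and 334 with vehicle, 301, 402 and 451 with AICAR, 401, 249 and 433 with GW1516, and 289, 288 and 218 with the combination. In these 3 genes the vehicle arrays already spanned the range of most others, the first being high and the second low, and every drug group overlapped vehicle.

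Combination arrays of Cd74 and H2-Eb1 all lay below the AICAR arrays, as did those of C1qb and Ctss. That made 4 of 32 members (12.5%), beside 7.68% of all genes, with 0 members wholly above (6.80% of genes). H2-Eb1 differed by -0.53 between the combination and AICAR (SE 0.29, 95% interval -1.15 to 0.09) and Cd74 by -0.36 (SE 0.21, interval -0.81 to 0.09), with adjusted p = 0.736 and 0.743 by limma. All 4 chains lay below AICAR by their means after the combination, by -0.53 to -0.32, and no chain passed limma's test. After GW1516, H2-Aa differed from vehicle by -0.30 and Cd74 by -0.17 (adjusted p = 0.692 and 0.833 by limma); without the second array the values were -0.01 and 0.14, so the sign for Cd74 turned. H2-Eb1 went from 0.16 to 0.40.

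H2-Aa, Cd74 and H2-Eb1 varied together from array to array. Between H2-Aa and Cd74, r was 0.98 (two-sided permutation p = 1e-05, the smallest that the permutations can give, adjusted 9e-05 over 9 pairs) and rho was 0.91 (permutation p = 0.00017, adjusted 0.0006). For H2-Aa and H2-Eb1 r was 0.81 (adjusted permutation p = 0.00288) and rho 0.92, and for H2-Eb1 and Cd74 r was 0.79 (adjusted permutation p = 0.00288) and rho 0.89. Without the 2 arrays farthest from the median these r values were 0.97, 0.89 and 0.79, over deviations from the group means 0.98, 0.93 and 0.86, and without the second GW1516 array 0.95, 0.91 and 0.92. The r values within groups were thus no lower than those across all arrays.

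H2-Ab1 did not follow them on its brightest probe set. Its signals were 306, 460 and 415 with vehicle, 402, 309 and 328 with AICAR, 254, 382 and 264 with GW1516, and 352, 239 and 250 with the combination. The first vehicle array, highest for H2-Aa, Cd74 and H2-Eb1 among the vehicle arrays, was the lowest of them for H2-Ab1. Its r was -0.18 with H2-Aa, -0.34 with H2-Eb1 and -0.24 with Cd74 (adjusted permutation p = 0.586, 0.351 and 0.53), with rho of -0.01, -0.20 and -0.10, and within groups the r values were -0.66, -0.69 and -0.65. H2-Ab1 differed from vehicle by -0.49 (SE 0.20, 95% interval -0.92 to -0.06, adjusted p = 0.389 by limma) after the combination and by -0.40 after GW1516, or -0.58 without the second array.

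Other probe sets of H2-Ab1 varied differently across the arrays, but shared the sign of the brightest after the combination. One had signals of 163, 145 and 127 with vehicle, 151, 191 and 136 with AICAR, 124, 73.7 and 189 with GW1516, and 137, 109 and 88.5 with the combination, so that the first vehicle array and the third GW1516 array were again high. Its differences from vehicle were 0.13, -0.27 and -0.39, and those of a further, dimmer probe set 0.17, 0.25 and -0.73, in the order AICAR, GW1516 and combination. Across the 14 members with several probe sets, the probe sets of a gene differed in sign for 8 after AICAR, 7 after GW1516 and 9 after the combination, and 21 members had 1 probe set.

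**Figure D4:**
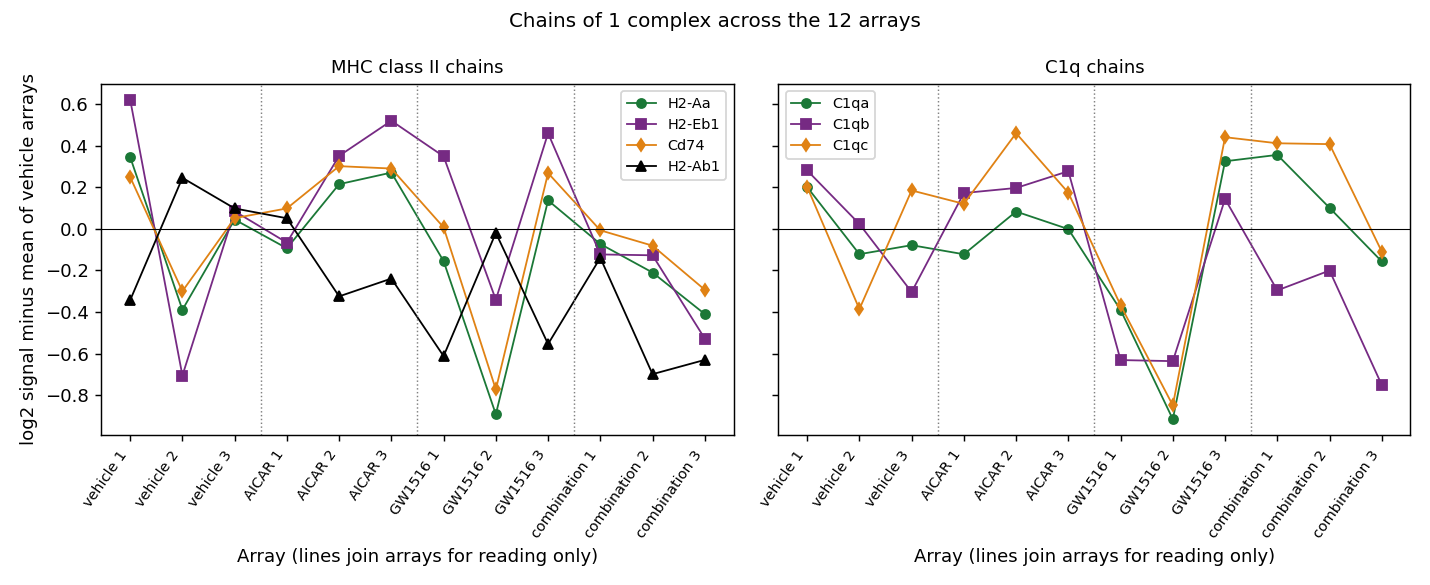
Log2 signal minus the mean of the vehicle arrays (vertical axis) for each of the 12 arrays (horizontal axis) for the C1q chains and for the MHC class II chains with Cd74; lines join arrays for reading only. C1qa and C1qc run close together (r = 0.91), as do H2-Aa and Cd74 (r = 0.98), while the brightest H2-Ab1 probe set runs apart from both.

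MHC class II promoters carry an X box bound by the RFX complex and a Y box bound by NF-Y, and both are needed for the coactivator CIITA to act. For the chains that varied together and were matched in the promoter table, the 150 bases before the start are shown (RefSeq, GRCm38.p6), with GCAAC, the core of the X box, and ATTGG or its reverse complement CCAAT, the core of the Y box, in capitals.
H2-Aa, chr17:34287824-34287973, minus strand: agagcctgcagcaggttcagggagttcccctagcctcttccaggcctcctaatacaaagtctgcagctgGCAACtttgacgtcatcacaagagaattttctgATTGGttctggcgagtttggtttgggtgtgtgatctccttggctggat
H2-Eb1, chr17:34305717-34305866, plus strand: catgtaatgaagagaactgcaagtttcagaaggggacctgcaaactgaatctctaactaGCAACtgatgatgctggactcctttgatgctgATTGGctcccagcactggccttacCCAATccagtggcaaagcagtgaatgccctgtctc
In H2-Aa, GCAAC begins 81 and ATTGG 48 bases before the start, and in H2-Eb1 91 and 59 bases before it, with a CCAAT at 35. On either strand, CCAAT was found in 10 of the 25 matched members (40%) and 37.5% of all promoters, and GCAAC in 7 (28%) and 33% of all. GCAAC followed by ATTGG within 40 bases on the coding strand was found in H2-Aa and H2-Eb1, 2 of 25 (8%), and in 209 of 27025 promoters (0.773%). Both genes are known targets of this pair of boxes, so the match describes their sequence and adds no test. Ciita itself was too dim to test, with signals of 22.0 to 60.4 with vehicle, 18.0 to 51.6 with AICAR, 8.27 to 16.3 with GW1516 and 8.87 to 17.3 with the combination. Both GW1516-containing groups lay wholly below vehicle and AICAR there, at signals under the filter.

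Among chemokines and their receptors, Ccl2, which draws monocytes from blood, was near background. Its signals were 3.00, 7.84 and 3.43 with vehicle, 53.4, 14.4 and 24.0 with AICAR, 70.1, 33.1 and 4.46 with GW1516, and 4.15, 29.2 and 20.7 with the combination. AICAR arrays were all higher than vehicle arrays, and GW1516 and the combination each held 1 array at the vehicle level. With no filter, Ccl2 differed from vehicle by 2.61, 2.33 and 1.65 on the log2 scale after AICAR, GW1516 and the combination, with adjusted p = 0.692, 0.573 and 0.621 by limma; most of these signals lay below the filter of 28.2.

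Ccr2, the receptor for Ccl2 on monocytes, had signals of 43.4, 25.7 and 30.0 with vehicle, 51.8, 47.2 and 25.5 with AICAR, 42.8, 29.3 and 33.3 with GW1516, and 34.7, 53.9 and 58.1 with the combination, with overlap throughout. Its largest difference from vehicle on this probe set was 0.57 (SE 0.42, adjusted p = 0.657 by limma) after the combination. Other Ccr2 probe sets gave 0.45 there and, below the filter, 0.62 and -2.02. The set at -2.02 had signals of 3.00, 6.88 and 11.9 with the combination, all below its vehicle signals of 25.9, 28.4 and 22.2. Ccl9, a chemokine of macrophages, had 203, 220 and 208 with vehicle, 199, 309 and 298 with AICAR, 218, 173 and 220 with GW1516, and 304, 332 and 205 with the combination. In the groups given AICAR, 2 of 3 arrays, at 298 to 332, stood above vehicle and the other stood near the vehicle level. Ccl9 after the combination exceeded vehicle by 0.39 (SE 0.20, adjusted p = 0.505) and GW1516 by 0.44 (SE 0.20, adjusted p = 0.468 by limma), or 0.32 without the second GW1516 array. Ccl6 ran from 152 to 320 with overlapping groups. Cx3cr1, the fractalkine receptor of resident macrophages, ran from 42.0 to 47.1 with vehicle, from 10.9 to 39.5 with AICAR and from 21.6 to 29.7 with the combination, and its GW1516 arrays stood at 38.0, 8.23 and 47.0. It lay just above the filter, and after AICAR the brightest probe set differed from vehicle by -0.93 (SE 0.67, adjusted p = 0.809 by limma), while the other, below the filter, gave 0.79. The difference after GW1516 was -0.84 with the second array and -0.06 without it, and that between the combination and GW1516 was 0.12 and -0.66.

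Other genes of the same cells gave a like count. Of 47 further macrophage genes, 45 were on the array and 33 were tested, and limma called 0 against vehicle in each comparison. At an unadjusted p under 0.05 there were 1, 3 and 4 of the 33 after AICAR, GW1516 and the combination. The shares of all genes were 6.93%, 9.64% and 10.9%. The medians of the 45 further macrophage genes were 0.00, -0.08 and -0.12. The smallest p by limma's F test belonged to Rac2, a small GTPase of leukocytes (adjusted p = 0.349), and Trem2, a lipid-sensing receptor of macrophages (adjusted p = 0.418). Trem2 ran from 20.9 to 52.5 with vehicle, 63.5 to 98.8 with AICAR, 23.4 to 57.2 with GW1516 and 10.8 to 42.5 with the combination, so that its AICAR arrays stood wholly above those of the other groups. It was named for its small p, and 9.30% of all genes tested lay wholly above vehicle after AICAR. The share of genes above all the other groups was not counted. Cd40, a co-stimulatory receptor of antigen-presenting cells, ran from 10.7 to 50.4 with vehicle and from 43.8 to 101 in the drug groups (limma F test, adjusted p = 0.262). It belongs to a list of 15 further genes of class II presentation, with 14 on the array and 8 tested, whose medians were 0.33, -0.11 and 0.11. Class I presentation genes (12 tested) had medians of 0.21, 0.09 and 0.06, other complement genes (9 tested) of 0.20, -0.17 and -0.02, and interferon response genes (15 tested) of 0.08, -0.13 and -0.10. Without the second GW1516 array the GW1516 medians of these 4 lists were -0.08, 0.22, -0.01 and 0.01. By limma 0 genes of these 4 lists were called against vehicle. At an unadjusted p under 0.05 none of the 4 had more than 1 in any of the 3 comparisons. Genes of phagocyte lysosomes and lipid handling (17 tested) also had 0 called, with 1, 4 and 3 at an unadjusted p under 0.05. After GW1516 and the combination these counts were above the shares of all genes, 9.64% and 10.9%. The medians of this list were 0.07, 0.12 and 0.09, and 0.18 after GW1516 without the second array of that group. Smallest in F-test p were Abcg1 (0.45, 0.78 and 1.26, adjusted p = 0.325 by limma's F test) and Abca1 (0.42, 0.51 and 0.54, adjusted p = 0.376).

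Markers of other cell types were set beside these values. Of 13 T and NK cell markers on the array, 10 lay under the filter, the CD3 chains among them (Cd3d between 2.53 and 6.26), and 3 were tested. Those were Zap70, between 200 and 411, Cd8a, between 113 and 193, and Cd4, between 20.8 and 97.6. Of 11 monocyte and neutrophil markers on the array 5 were tested, and the neutrophil marker S100a8 lay between 6.52 and 50.4. By median that list differed from vehicle by 0.33, 0.38 and 0.56 after AICAR, GW1516 and the combination. Its summed signal ran from 286 to 375 with vehicle and 319 to 444 with GW1516. With AICAR (401 to 466) and the combination (377 to 491) it lay wholly above vehicle, though only just with the combination. Of the 5 tested, 1, 1 and 0 had an unadjusted p under 0.05 by limma. Other sums also cleared vehicle after AICAR, among them that of the Fc receptors and adaptors (423 to 473, beside 362 to 411). Of 9 dendritic cell markers 4 were tested, with medians of 0.57, 0.28 and 0.38. The part of these cells in the macrophage values was not tested. B cells also carry class II, and of their 7 markers on the array 4 were tested. Ighm, the heavy chain of IgM, was clearly measured, from 1084 to 1366 with vehicle, 875 to 1163 with AICAR, 530 to 1020 with GW1516 and 772 to 920 with the combination. Its differences from vehicle were -0.24, -0.70 and -0.59, and limma's F test gave an adjusted p of 0.348. The list did not follow Ighm after GW1516. By median the 7 markers differed from vehicle by -0.24, 0.27 and -0.11, with 3, 5 and 3 of them above 0. Cd79a lay between 6.50 and 42.1 and Ms4a1 between 12.5 and 71.2, and the summed signal of the list ran from 1254 to 1560 with vehicle, 1018 to 1391 with AICAR, 727 to 1294 with GW1516 and 971 to 1077 with the combination. The part of B cells in the class II values was not tested. Adipocyte markers, 11 on the array, varied most between arrays. Their median stood at 0.40, -0.45 and -0.16 from the vehicle mean with vehicle, -0.09, 1.01 and 1.63 with AICAR, 0.62, -0.19 and 1.22 with GW1516, and 1.35, 0.64 and -0.04 with the combination. Their summed signal ran from 1972 to 4610 with vehicle, from 2642 to 9972 with AICAR, from 3197 to 6953 with GW1516 and from 2630 to 7685 with the combination. Of the defining adipocyte markers on the array, Adipoq ran from 660 to 4385 and Cidec from 145 to 994. The macrophage and antigen-presenting genes stood by median at 0.13, -0.04 and -0.05 with vehicle, -0.04, 0.21 and 0.16 with AICAR, -0.21, -0.35 and 0.18 with GW1516, and -0.01, 0.07 and -0.16 with the combination. Both lists had their lowest array of the AICAR group in the first, of GW1516 in the second and of the combination in the third. Their highest vehicle array was the first and their highest GW1516 array the third. Their lowest vehicle array differed, the second for adipocyte markers and the third for the macrophage and antigen-presenting genes. In that order of lists, the highest AICAR array was the third and the second, and the highest combination array the first and the second. The part of fat in the macrophage values was not tested. No marker list gave a call against vehicle except the endothelial one, with Adgrf5 after the combination (0.57, adjusted p = 0.0477 by limma).

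**Figure D5:**
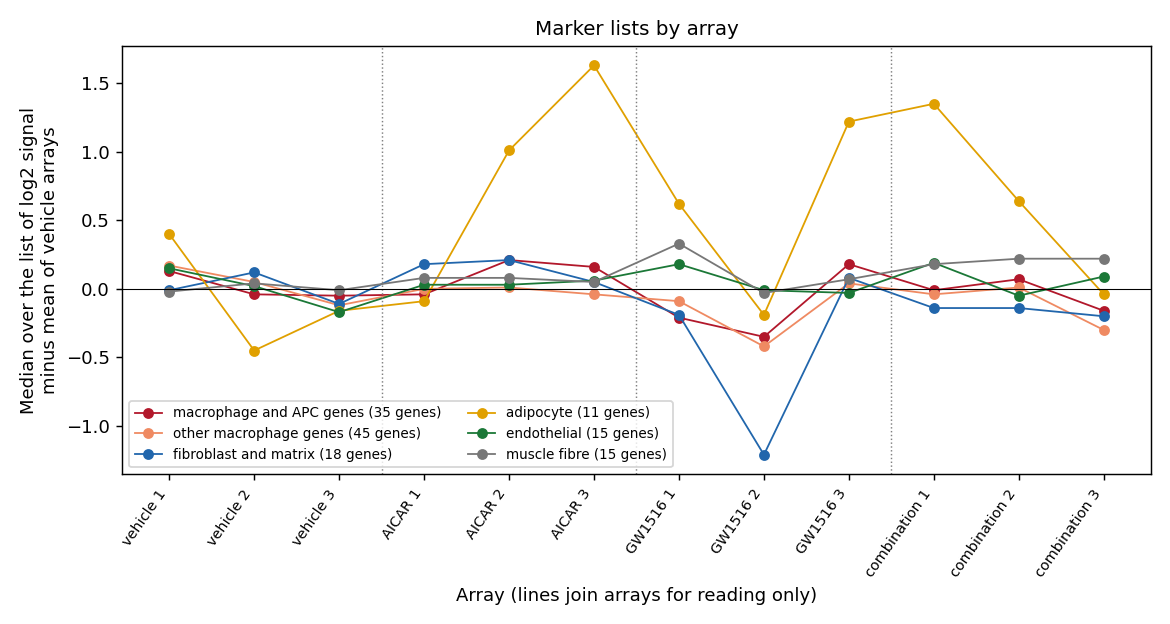
Median over each marker list of log2 signal minus the mean of the vehicle arrays (vertical axis) on each of the 12 arrays (horizontal axis); lines join arrays for reading only. The fibroblast and matrix list drops to -1.21 and the macrophage and antigen-presenting genes to -0.35 on the second GW1516 array, and the adipocyte list reaches 1.63 on the third AICAR array.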

How the data were processed

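The 35 genes, the marker lists, the tests and the alternatives were chosen with earlier results of these data known. The deposited values are intensity values, 1 per probe set on a linear scale, made by the authors with MAS5 per the submitters' processing notes; no version is named in the sources used here. Each array's trimmed mean was 200. Signals below 1 were set to 1 (3531 of 540444) before taking log2, and arrays were not normalized again. Of 45037 probe sets that are no controls, 34945 carried 1 symbol in the array annotation, 932 several and 9160 were unnamed here; 34741 symbols matched the gene table, which changed 0. Probe sets under the 40th percentile of mean log2 signal (40% of all) were dropped, and each gene was read from its brightest probe set.

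All 12 arrays were fitted with limma 3.58.1 in R 4.3.3, a mean per group with moderated variances and a trend (8 residual and 5.91 prior degrees of freedom), for 6 contrasts and an F test. P-values were two-sided and adjusted by Benjamini-Hochberg over the 12771 genes tested. Values in every array are given for called members (0), for the 8 members of smallest F-test p and for a fixed set; the others are given by range. In each other list the 1 or 2 genes of smallest F-test p and the first 4 markers could be named. Correlations used 100000 permutations. The code was tested on simulated data. Same-numbered arrays of different groups had deviations correlated between -0.11 and 0.07 over 18 pairs, so replicate numbers were not taken to pair arrays. Plots used matplotlib 3.10.9 (Python 3.11.15). The alternatives tried were median centring, quantile normalization, 32 added as a pseudocount, no filter and a filter at the 60th percentile, averaged probe sets, variances without trend or robust, array weights, a replicate block, only the groups compared, and each array left out.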

Additional observations from a re-analysis of the deposited data

How the results depend on the processing

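Under every alternative run, limma called 0 of the members tested in the 6 contrasts and the F test. The lowest adjusted p of any member by limma was 0.13, for Cd14 after AICAR with array weights. The count over all genes varied in both directions. For the combination against vehicle it was 33 as reported, 2 with variances without trend and 10 without vehicle replicate 1. It was 92 with array weights and 95 without GW1516 replicate 2. The replicate number as a block also called 0 members; the numbers do not pair the arrays, since 0 of 18 same-numbered pairs correlated above 0.1 and 2 of 12 arrays correlated best with their own number. The members' median difference after GW1516, -0.20, ranged from -0.32 to -0.01 as each array was left out, and was -0.01 without GW1516 replicate 2; it ranged from -0.23 to -0.14 over other settings. With probe sets averaged per gene, Laptm5 turned sign, to 0.25 after AICAR, -0.07 for the combination against AICAR and -0.24 for the interaction; the cause was not tested. Of 192 differences, 99 kept their sign under every alternative and 93 did not, none of these larger than 0.40. Median centring moved the median of all genes to -0.11 after AICAR, -0.08 after the combination and -0.10 for the combination against GW1516. Members above vehicle were then 16 after AICAR (20 as reported), 9 after GW1516 (9) and 14 after the combination (18), and members above AICAR after the combination were 15 (10). With 3 arrays a group and no detection calls used, a member's 95% interval reached 0.56 to either side by median.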
